A study of Mus musculus with 4 samples.

Results

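The mitochondrial chromosome carries 37 of the 52535 gene models in the count files of this series, and all 37 were taken by their chromosome label. They fall into 13 mRNA genes, 2 rRNA genes (mt-Rnr1 and mt-Rnr2) and 22 tRNA genes (names beginning mt-T). RNA was sequenced from pancreatic duct cells of C57BL/6 mice in 2 libraries with the genotype Lats1fl/fl; Lats2fl/fl; Sox9-CreER (KO 1 and KO 2) and in 2 libraries from wild-type mice (WT 1 and WT 2). In the knockout genotype both floxed Hippo kinase genes are meant to be cut by a Cre recombinase that is expressed from Sox9 and needs tamoxifen, so only cells with Sox9 activity can be targeted. The other mice are labelled wild type without further detail. The sources used here do not give the age, the induction or the way duct cells were isolated. Whether replicates are separate animals is not said either, and p-values here rest on the spread of these 4 libraries, which may be technical.

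Library totals were 5082636 and 5925601 counts in KO 1 and KO 2, against 3566387 and 4735183 in WT 1 and WT 2. Lats1 stood at 68.5 and 82.5 CPM in KO 1 and KO 2, against 51.9 and 61.7 CPM in WT 1 and WT 2 (CPM are counts scaled to the library total; edgeR adjusted p = 0.172). Lats2 stood at 159.8 and 126.6 CPM in KO 1 and KO 2, against 116.6 and 96.1 CPM in WT 1 and WT 2 (edgeR adjusted p = 0.127). Neither was lower in the knockout-labelled libraries, and counts over whole gene models do not show whether floxed exons were removed. The duct label was checked against 9 duct markers, all with counts in both groups, which together took 0.751% and 0.839% of the counts in KO 1 and KO 2, against 0.101% and 0.124% in WT 1 and WT 2. A list of 17 digestive enzyme and acinar factor genes took 0.0166% and 0.411% in KO 1 and KO 2, against 5.68% and 9.33% in WT 1 and WT 2, with 14 of the 17 lower in both knockout-labelled libraries and 1 at 0 there. The wild-type libraries thus held more acinar than duct marker RNA. Macrophage markers took 0.360% and 0.272% in KO 1 and KO 2, against 0.0494% and 0.0421% in WT 1 and WT 2, with 7 of 7 higher in both knockout-labelled libraries. Fibroblast and stellate markers took 1.47% and 0.983% in KO 1 and KO 2, against 0.303% and 0.244% in WT 1 and WT 2, with 6 of 7 higher. All markers listed for T and NK cells (7), B cells (6), islets (7), endothelium (5) and smooth muscle (5) were lower in both knockout-labelled libraries than in either wild-type library, and none of these was at 0 in a group. In bulk samples a smaller number of cells of a type and less RNA per cell cannot be told apart.

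Mitochondrial DNA is a small circle that is transcribed from both strands into long precursors. Most genes are read from the heavy strand, and the light strand encodes mt-Nd6 and a minority of the tRNAs. The precursors are cut at the tRNAs that lie between the other genes, and the resulting mRNAs encode subunits of 4 of the respiratory chain complexes while the rRNAs build the mitochondrial ribosome. In the files 28 of the 37 genes lie on the plus strand and 9 on the minus strand, mt-Nd6 and 8 tRNA genes. Pieces of mitochondrial DNA have also been copied into nuclear chromosomes during evolution, and reads from such stretches fit more than a single place.

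The mRNA genes that occur almost whole in nuclear copies had the lowest levels per length, so genes from both ends of the range of sharing are shown. Sequences are from GENCODE M21 transcripts (GRCm38, the assembly also called mm10), 5′ to 3′ on the plus strand of the mitochondrial chromosome. The first, mt-Nd4l (positions 9877 to 10173), encodes a small complex I subunit, and all of it but the last 3 bases, in capitals, is identical to the pseudogene Gm10222. The second, mt-Nd3 (9459 to 9806, of which the first 90 bases are shown), also of complex I, differs from the pseudogene Gm28438 at the capital base, the substitution T3C counted from the first base of mt-Nd3. The third, mt-Atp8 (7766 to 7969), of the ATP synthase, shares with the pseudogene Gm10925 the 43 bases in capitals.
mt-Nd4l: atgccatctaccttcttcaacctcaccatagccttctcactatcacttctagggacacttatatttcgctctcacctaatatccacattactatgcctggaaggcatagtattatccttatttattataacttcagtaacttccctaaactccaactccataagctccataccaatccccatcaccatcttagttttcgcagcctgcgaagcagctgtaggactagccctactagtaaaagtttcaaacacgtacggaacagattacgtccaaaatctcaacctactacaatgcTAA
mt-Nd3: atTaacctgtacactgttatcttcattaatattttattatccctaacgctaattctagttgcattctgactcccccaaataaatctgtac
mt-Atp8: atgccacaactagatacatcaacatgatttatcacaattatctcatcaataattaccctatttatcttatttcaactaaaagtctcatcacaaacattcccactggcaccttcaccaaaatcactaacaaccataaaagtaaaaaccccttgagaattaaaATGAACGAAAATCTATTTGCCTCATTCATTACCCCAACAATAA

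A run of 7 pseudogene models on the minus strand of chromosome 1 matches mitochondrial genes in the order of the mitochondrial chromosome along that strand. By rising position they are Gm28439, Gm10222, Gm28438, Gm28437, Gm10925, Gm28661 and Gm29216, and they lie between positions 24611535 and 24616197. Adding the end of a model, its first base on that strand, to the mitochondrial position this base matches gave 24622577 for 2 of them and 24622578 for the other 5, so the copies keep the mitochondrial spacing to within 1 base. Their identity to the mitochondrial gene was 100% for mt-Co2, mt-Atp6, mt-Co3, mt-Nd4l and 876 bases of mt-Nd4, 99.7% for mt-Nd3 and 99.8% for 483 bases of mt-Co1. By this spacing the bases of mt-Atp8 that match no model would fall in the space between Gm10925 and Gm28661.

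Of the 15 mRNA and rRNA genes, the 5 that are nearly all contained in nuclear transcripts had the lowest levels per length in every library. Between 98.0% and 100% of the 50-base windows of mt-Atp6, mt-Co3, mt-Co2, mt-Nd4l and mt-Nd3 also occur in a nuclear GENCODE transcript. Their levels per length ran from 0 to 209.6 CPM per kilobase. In the other 10 genes at most 62.2% of windows were shared, and levels ran from 281 to 7284 CPM per kilobase. Sharing was counted against annotated transcripts only. mt-Atp8 thus stands at 0% among the 10, although by the spacing above its unmatched bases would fall between Gm10925 and Gm28661. The treatment of reads with several matches and the read length are not given, and the part of read assignment in these levels was not tested. A low count of mt-Co2 or mt-Nd3 in these files therefore cannot be taken as a measure of how much of that mRNA the cells hold.

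**Figure D1:**
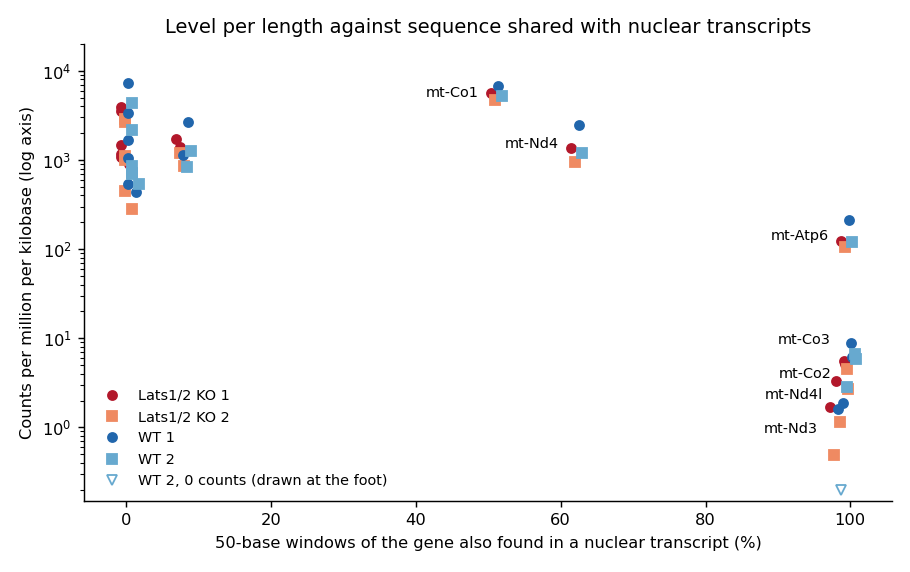
Level per length in CPM per kilobase (log axis) of the 15 mRNA and rRNA genes in each library, against the percentage of the gene's 50-base windows found in a nuclear transcript; points of a gene are shifted slightly sideways. The 5 genes at 98.0% or more stay at or below 209.6 CPM per kilobase, and the other 10 at or above 281; the open triangle is mt-Nd3 in WT 2, with 0 counts.

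The subunits of cytochrome c oxidase (complex IV) show the extremes. The mt-Co1 gene (5328 to 6872), which encodes the catalytic subunit, had 44753 and 43129 counts in KO 1 and KO 2, against 37610 and 38049 in WT 1 and WT 2. The gene of the copper-binding subunit, mt-Co2 (7013 to 7696), had 18 and 11 counts in KO 1 and KO 2, against 15 and 19 in WT 1 and WT 2. Its neighbour mt-Co3 (8607 to 9390) had 22 and 21 counts in KO 1 and KO 2, against 25 and 25 in WT 1 and WT 2. All 3 subunits belong to 1 complex, yet their counts lay orders of magnitude apart in each library.

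The nuclear copies of the 4 lowest genes had more counts than the mitochondrial genes in all 4 libraries. Gm28661, the copy of mt-Co2, had 53 and 47 counts in KO 1 and KO 2, against 80 and 48 in WT 1 and WT 2. Over the 4 libraries the copies held 228 counts against 63 for mt-Co2, 221 against 93 for mt-Co3, 60 against 13 for mt-Nd4l and 38 against 6 for mt-Nd3. Gm10925, the copy of mt-Atp6, held 1252 counts against 1746 for mt-Atp6. With copy and gene added, mt-Co2 reached 20.4 and 14.3 CPM per kilobase in KO 1 and KO 2, against 38.9 and 20.7 in WT 1 and WT 2, still below every gene with less shared sequence. Of these 5 copies, the 4 tested did not pass (edgeR adjusted p = 0.0654 to 0.98), and Gm28438 had too few counts to be tested.

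The mitochondrial chromosome as a whole took overlapping shares of the counts in the groups. All 37 genes together held 2.67% and 1.93% of the counts in KO 1 and KO 2, against 3.26% and 2.18% in WT 1 and WT 2. Means were 2.30% ± 0.526 in the knockout-labelled libraries and 2.72% ± 0.765 in wild type (SD, n = 2 each). The groups overlapped, with a log2 ratio of -0.24 (two-sided exact permutation test, p = 0.667, where the smallest p that 2 against 2 libraries allow is 0.333). Counting error was small beside this, with Wilson 95% intervals of at most 0.0184 percentage points to either side for the summed shares.

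mRNA genes made up most of that share. They held 2.42% and 1.84% of the counts in KO 1 and KO 2, against 3.14% and 2.02% in WT 1 and WT 2, a log2 ratio of -0.28 (exact permutation test, p = 0.667). Library WT 1 was the highest and KO 2 the lowest, and in each group the 2 libraries lay further apart than the group means. Within-group folds were 1.32 between KO 1 and KO 2 and 1.55 between WT 1 and WT 2. By complex, complex I mRNA took 1.10% and 0.755% in KO 1 and KO 2, against 1.20% and 0.693% in WT 1 and WT 2. Complex V mRNA took 0.0304% and 0.0276% in KO 1 and KO 2, against 0.0481% and 0.0259% in WT 1 and WT 2.

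Of the 37 genes, 16 had counts and 14 passed the filter on low counts, namely 11 mRNA genes, 2 rRNA genes and 1 tRNA gene. A gene was called changed where the p from edgeR's quasi-likelihood test, Benjamini-Hochberg adjusted over all 13990 genes tested, was under 0.05. Of the 14, 1 was called, mt-Cytb, which was lower. That is 7.14% of the mitochondrial genes tested, beside 42.2% of all genes tested (22.0% higher and 20.2% lower). The median log2 fold change, knockout-labelled minus wild type, was -0.27 over the 14 genes and -0.01 over all genes tested. At an unadjusted p under 0.05, 1 of the 14 was higher (mt-Nd6) and 2 were lower (mt-Cytb and mt-Atp6), and DESeq2 called mt-Cytb alone.

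**Figure D2:**
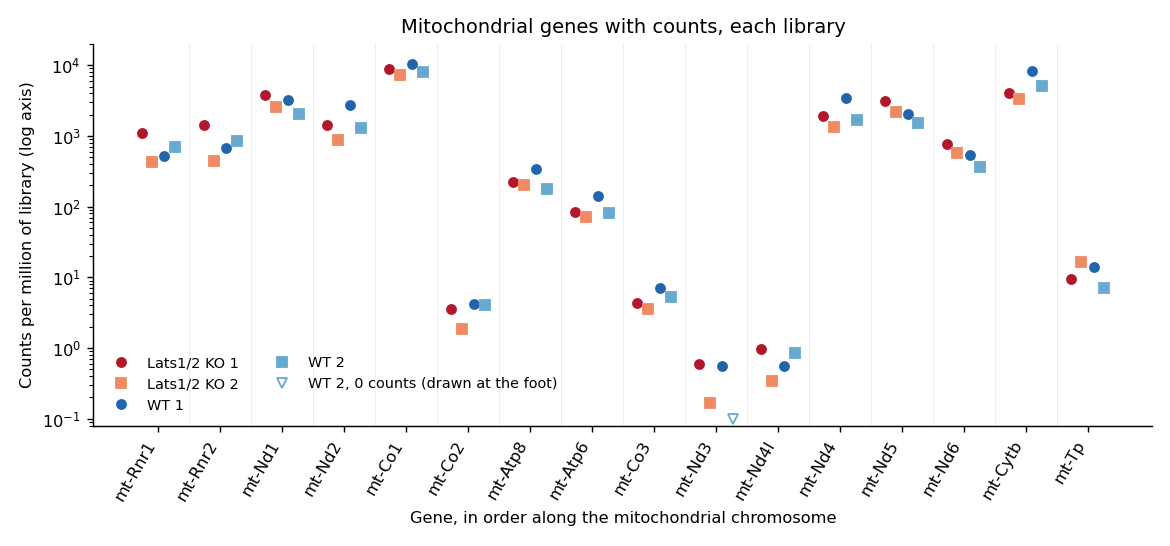
CPM (log axis) of the 16 mitochondrial genes with counts, in order along the chromosome, for the 2 knockout-labelled libraries and the 2 wild-type libraries. mt-Co1 is the highest gene in each library (7278 to 10546 CPM), and mt-Co2, mt-Co3, mt-Nd3 and mt-Nd4l lie below 10 CPM; the open triangle marks 0 counts.

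mt-Cytb (14145 to 15288), which encodes cytochrome b, the mitochondrial-encoded subunit of complex III, fell. It stood at 4071 and 3290 CPM in KO 1 and KO 2, against 8333 and 5013 CPM in WT 1 and WT 2. Both knockout-labelled libraries were below both wild-type libraries, and the wild-type pair spread more widely. Means were 3680 ± 552 CPM in the knockout-labelled libraries and 6673 ± 2347 CPM in wild type (SD, n = 2 each), a log2 fold change of -0.88 ± 0.27 SE (edgeR adjusted p = 0.0278). The call did not hold without KO 1 (-1.09, edgeR adjusted p = 0.053), KO 2 (-0.67, edgeR adjusted p = 0.167) or WT 1 (-0.53, edgeR adjusted p = 0.392), nor without robust estimation (edgeR adjusted p = 0.115), and it held in the other 11 of 15 alternatives, DESeq2 among them (adjusted p = 0.00262). The markers of acinar and other cell types given above differ between the same libraries, and their part in this result was not tested.

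The complex I genes mt-Nd5 and mt-Nd6, which are neighbours on opposite strands, leaned the other way without passing. mt-Nd5 (11742 to 13565), a membrane subunit of the proton pump, stood at 3132 and 2197 CPM in KO 1 and KO 2, against 2061 and 1534 CPM in WT 1 and WT 2 (log2 fold change 0.54 ± 0.25 SE, edgeR adjusted p = 0.117). mt-Nd6 (13552 to 14070, minus strand), another membrane subunit, stood at 763 and 581 CPM in KO 1 and KO 2, against 540 and 364 CPM in WT 1 and WT 2 (0.54 ± 0.23 SE, edgeR adjusted p = 0.0839). For each gene both knockout-labelled libraries lay above both wild-type libraries. Without KO 2 both passed, mt-Nd5 with 0.84 (edgeR adjusted p = 0.015) and mt-Nd6 with 0.80 (edgeR adjusted p = 0.0368). Both also passed without the filter on low counts (edgeR adjusted p = 0.00797 for mt-Nd5 and 0.00404 for mt-Nd6).

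The reading frames of this pair overlap tail to tail by 14 bases. The last 30 bases of each are shown 5′ to 3′ on its own strand, with the overlap in capitals, mt-Nd5 from position 13536 to 13565 and mt-Nd6 from 13581 down to 13552. Whether the counting used strand is not given, so reads from either strand of this stretch cannot be told apart.
mt-Nd5: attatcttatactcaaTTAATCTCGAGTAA
mt-Nd6: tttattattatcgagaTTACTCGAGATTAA

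Among the remaining complex I genes, mt-Nd1 (2751 to 3707) stood at 3775 and 2560 CPM in KO 1 and KO 2, against 3249 and 2069 CPM in WT 1 and WT 2. Its groups overlapped (log2 fold change 0.23 ± 0.28 SE, edgeR adjusted p = 0.542), and its sign turned without KO 1 (-0.13) and without WT 2 (-0.008). mt-Nd2 (3914 to 4951) stood at 1440 and 889 CPM in KO 1 and KO 2, against 2779 and 1296 CPM in WT 1 and WT 2 (-0.82 ± 0.41 SE, edgeR adjusted p = 0.163). Its groups overlapped, with KO 1 above WT 2, and it passed without WT 2 (-1.22, edgeR adjusted p = 0.0396). mt-Nd4 (10167 to 11544) showed the same arrangement, with 1892 and 1318 CPM in KO 1 and KO 2, against 3399 and 1667 CPM in WT 1 and WT 2 (-0.67 ± 0.35 SE, edgeR adjusted p = 0.162). mt-Nd3 had 3 and 1 counts in KO 1 and KO 2, against 2 and 0 in WT 1 and WT 2, and mt-Nd4l had 5 and 2 counts in KO 1 and KO 2, against 2 and 4 in WT 1 and WT 2. Neither passed the filter, and no fold is given at these counts.

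For complex IV, mt-Co1 stood at 8805 and 7278 CPM in KO 1 and KO 2, against 10546 and 8035 CPM in WT 1 and WT 2. The groups overlapped (-0.24 ± 0.23 SE, edgeR adjusted p = 0.434). mt-Co2 and mt-Co3 were lower in both knockout-labelled libraries than in either wild-type library, but on few counts (edgeR adjusted p = 0.345 and 0.232). By CPM, 5 of the 14 tested genes did not overlap between groups, 2 above and 3 below wild type, beside 73.0% of all genes tested (38.4% above and 34.7% below). The ATP synthase gene mt-Atp8 stood at 221 and 204 CPM in KO 1 and KO 2, against 338 and 176 CPM in WT 1 and WT 2 (edgeR adjusted p = 0.404), and its sign turned without WT 1 (0.18). Its partner mt-Atp6 (7927 to 8607), which overlaps it by the 43 bases shown above, stood at 83.0 and 71.7 CPM in KO 1 and KO 2, against 142.7 and 82.4 CPM in WT 1 and WT 2 (-0.56 ± 0.24 SE, edgeR adjusted p = 0.0925). It passed without WT 2 (-0.86, edgeR adjusted p = 0.019).

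**Figure D3:**
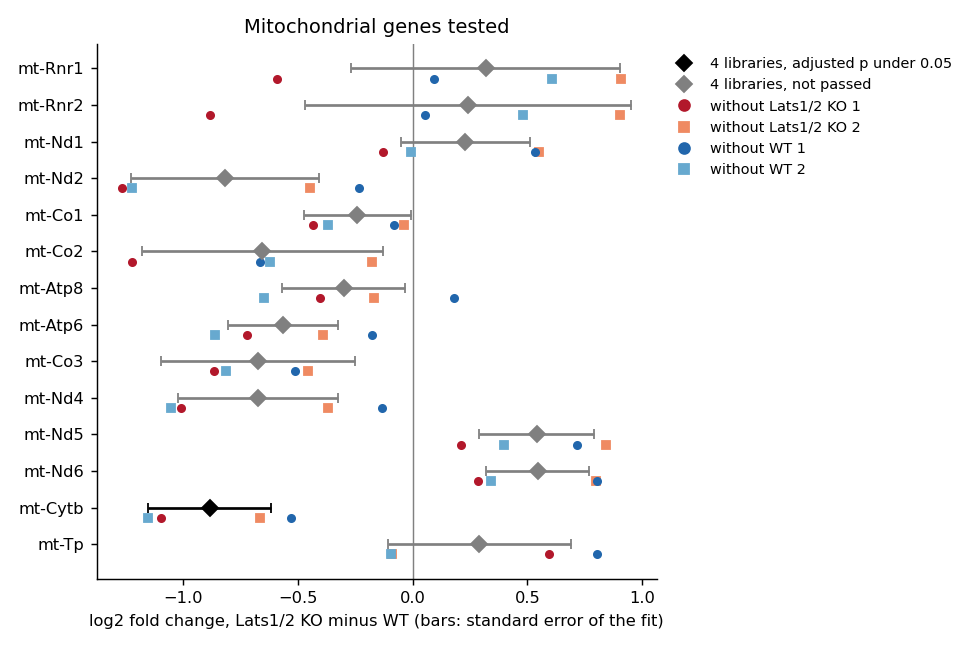
log2 fold change, knockout-labelled minus wild type, of the 14 tested mitochondrial genes (diamonds, black where the adjusted p was under 0.05). Bars are the SE derived from the F statistic of the fit. Beneath each diamond is the value with 1 library left out. mt-Cytb (-0.88) is the sole black diamond, and mt-Rnr1, mt-Rnr2 and mt-Nd1 change sign without KO 1.

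Read as shares of the mitochondrial mRNA counts, which do not depend on how libraries are scaled to each other, some genes took clearly different parts in the groups, a description with no test. mt-Cytb made up 16.8% and 17.9% in KO 1 and KO 2, against 26.5% and 24.8% in WT 1 and WT 2. mt-Nd5 made up 12.9% and 11.9% in KO 1 and KO 2, against 6.56% and 7.58% in WT 1 and WT 2. mt-Nd1 made up 15.6% and 13.9% in KO 1 and KO 2, against 10.3% and 10.2% in WT 1 and WT 2. In these 3 genes the distance between groups exceeded the distance between the replicates of either group. mt-Co1 was the largest part in each library, 36.4% and 39.6% in KO 1 and KO 2, against 33.6% and 39.7% in WT 1 and WT 2, and its groups overlapped. These are shares of counts, in which the genes nearly all contained in nuclear transcripts stand low. They are no measure of the make-up of the mRNA the cells hold.

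Of the 13 mRNA genes, 3 took a larger share in both knockout-labelled libraries (mt-Nd1, mt-Nd5 and mt-Nd6) and 5 a smaller share (mt-Nd2, mt-Nd4, mt-Cytb, mt-Atp6 and mt-Co3). A gain by 1 gene lowers the shares of the others, so these directions are not independent. By CPM, a different measure, the groups did not overlap in 73.0% of all genes tested. Shares of this kind were not formed for other genes. The count thus has no like background and marks no shift particular to these genes. mt-Nd2 took 5.95% and 4.83% in KO 1 and KO 2, against 8.85% and 6.40% in WT 1 and WT 2. mt-Nd4 took 7.82% and 7.17% in KO 1 and KO 2, against 10.8% and 8.23% in WT 1 and WT 2. In these 2 genes the group means lay closer together than WT 1 and WT 2. Wilson 95% intervals of the single shares reached at most 0.31 percentage points to either side and cover counting error only. For mt-Co3, with 22 and 21 counts in KO 1 and KO 2, against 25 and 25 in WT 1 and WT 2, these intervals overlapped between the groups. For mt-Atp6 those of KO 2 (0.355% to 0.429%) and WT 2 (0.368% to 0.449%) overlapped as well.

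**Figure D4:**
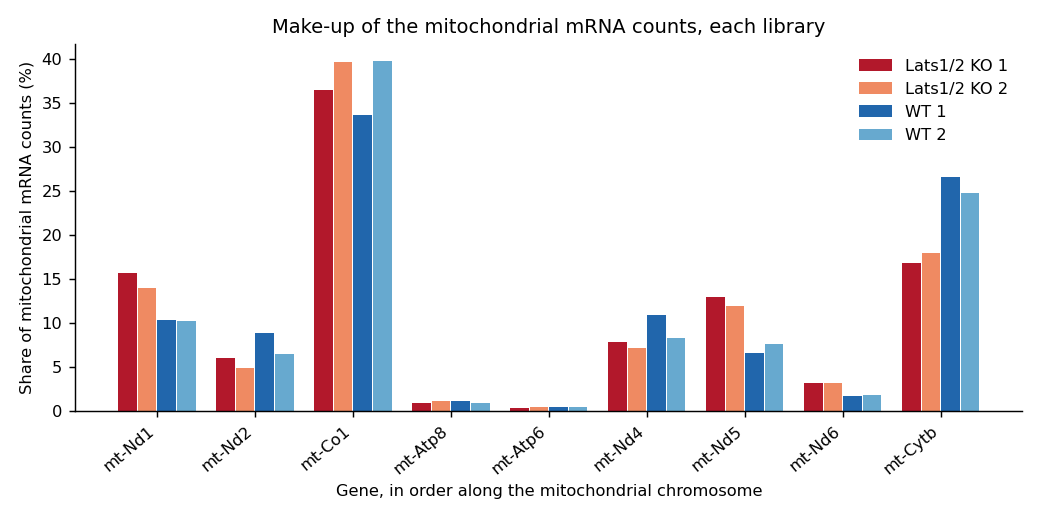
Share of the mitochondrial mRNA counts (%) taken by the 9 mRNA genes above 0.3% in wild type, as bars for each library, in order along the chromosome. The mt-Cytb bars are shorter in KO 1 and KO 2 (16.8% and 17.9%) than in WT 1 and WT 2 (26.5% and 24.8%), and the mt-Nd1, mt-Nd5 and mt-Nd6 bars taller.

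Counts of mt-Nd6, the only light-strand mRNA gene, were larger relative to the heavy-strand mRNA counts in both knockout-labelled libraries. Relative to its neighbour mt-Nd5 they were not. Since the use of strand in counting is not given, RNA from the opposite strand may be among the mt-Nd6 counts. These came to 3.26% and 3.26% of the heavy-strand mRNA counts in KO 1 and KO 2, against 1.75% and 1.83% in WT 1 and WT 2. The means lay 1.82-fold apart (two-sided exact permutation test, p = 0.333, the smallest that 2 against 2 libraries allow). Set against mt-Nd5 alone, mt-Nd6 came to 24.4% and 26.5% in KO 1 and KO 2, against 26.2% and 23.8% in WT 1 and WT 2, and the groups overlapped. This ratio and the next 2 were chosen after the values were seen and carry no test. Counts of mt-Nd5 came to 0.769 and 0.668 of those of mt-Cytb in KO 1 and KO 2, against 0.247 and 0.306 in WT 1 and WT 2. Counts of mt-Nd1 came to 2.62 and 2.88 times those of its neighbour mt-Nd2 in KO 1 and KO 2, against 1.17 and 1.60 in WT 1 and WT 2.

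The rRNA genes differed more between the 2 knockout-labelled libraries than between the groups. mt-Rnr1 (70 to 1024), the small-subunit rRNA, stood at 1111 and 427 CPM in KO 1 and KO 2, against 518 and 687 CPM in WT 1 and WT 2 (0.32 ± 0.59 SE, edgeR adjusted p = 0.71). mt-Rnr2 (1094 to 2675), the large-subunit rRNA, stood at 1412 and 445 CPM in KO 1 and KO 2, against 686 and 856 CPM in WT 1 and WT 2 (0.24 ± 0.71 SE, edgeR adjusted p = 0.823). KO 1 was the highest and KO 2 the lowest library for both genes. Their sum was 2.89-fold higher in KO 1 than in KO 2. Without KO 1 the log2 fold changes were -0.59 for mt-Rnr1 (edgeR adjusted p = 0.136) and -0.89 for mt-Rnr2 (edgeR adjusted p = 0.0251). Without KO 2 they were 0.91 and 0.90 (edgeR adjusted p = 0.0366 and 0.0174).

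Relative to the mRNA counts, the rRNA counts came to 10.4% and 4.74% in KO 1 and KO 2, against 3.84% and 7.62% in WT 1 and WT 2 (exact permutation test, p = 0.667). Per length both rRNAs ranked between 8 and 10 of the 15 mRNA and rRNA genes in each library, with 1163 and 447 CPM per kilobase for mt-Rnr1 in KO 1 and KO 2, against 543 and 720 in WT 1 and WT 2. Libraries were made from total RNA with a SMARTer Stranded kit, and whether rRNA was removed or mRNA selected first is not given. The rRNA counts are therefore no measure of how much rRNA the cells hold. Between the 2 rRNAs, mt-Rnr2 stood at 1.27 and 1.04 times mt-Rnr1 in KO 1 and KO 2, against 1.32 and 1.25 in WT 1 and WT 2. The groups overlapped, with KO 2 the lowest library (exact permutation test, p = 0.667).

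Of the 22 tRNA genes, 21 had 0 counts in all 4 libraries. A count of 0 allows up to 3 counts, or 0.59 and 0.506 CPM in KO 1 and KO 2, against 0.841 and 0.634 CPM in WT 1 and WT 2, counting error only. The exception was mt-Tp (15356 to 15422, minus strand), the proline tRNA gene, whose 67 bases are shown 5′ to 3′ on that strand because it alone carried the tRNA counts.
mt-Tp: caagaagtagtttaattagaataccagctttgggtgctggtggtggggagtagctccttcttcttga

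It had 48 and 98 counts in KO 1 and KO 2, against 50 and 33 in WT 1 and WT 2. Scaled to the library that was 9.44 and 16.5 CPM in KO 1 and KO 2 (Wilson 95% intervals 7.12 to 12.5 and 13.6 to 20.2), against 14.0 and 6.97 CPM in WT 1 and WT 2 (10.6 to 18.5 and 4.96 to 9.79). The groups overlapped (log2 fold change 0.29 ± 0.40 SE, edgeR adjusted p = 0.59), and the sign turned without KO 2 (-0.09) and without WT 2 (-0.09). As background, standard RNA-seq libraries recover few short, folded and modified RNAs such as tRNAs, and these counts are no measure of tRNA abundance. mt-Tp is also the last gene model on the chromosome, with no model after it, while each of the other tRNA genes except mt-Tf at the start has a model on both sides. The part of this position in the counts was not tested.

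Mitochondrial RNA is made, cut and used by proteins from nuclear genes, and 12 lists of these were read from the same fit. Together they hold 252 tested genes, of which 16 rose and 16 fell, or 12.7%, beside 42.2% of all genes tested. Their median log2 fold change was -0.06. Without 1 library the higher genes numbered 10 (KO 1), 13 (KO 2), 9 (WT 1) and 8 (WT 2), and the lower genes 11, 8, 11 and 7 in the same order, while 27.9% to 31.4% of all genes were called in those fits. DESeq2 called 12 higher and 10 lower, beside 35.8% of all genes (18.3% higher and 17.5% lower).

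The core transcription list, which holds the mitochondrial RNA polymerase Polrmt and the factors Tfam and Tfb2m, had 0 of 8 tested genes higher and 0 lower, and also 0 at an unadjusted p under 0.05 and 0 by DESeq2. Among regulators of mitochondrial biogenesis, 2 of 9 fell and 0 rose, or 22.2%, near the 20.2% of all genes called lower. DESeq2 called 1 of them lower. Ppargc1b, a co-activator of genes for mitochondrial proteins, stood at 3.15 and 2.03 CPM in KO 1 and KO 2, against 10.9 and 9.71 CPM in WT 1 and WT 2 (log2 fold change -2.04 ± 0.42 SE, edgeR adjusted p = 0.00518), with the groups well apart. Its relative Ppargc1a, at 1.77 and 2.87 CPM in KO 1 and KO 2, against 6.73 and 6.55 CPM in WT 1 and WT 2, passed with all 4 libraries (edgeR adjusted p = 0.0258) but in no fit that left a library out (edgeR adjusted p = 0.154, 0.0732, 0.0668 and 0.0938 without KO 1, KO 2, WT 1 and WT 2). Levels of both were low, and 1 gene of the list was called in each of those 4 fits.

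For RNA processing, modification and turnover, 1 of 30 tested genes rose and 3 fell; 0 rose without WT 2 and 1 fell without WT 1. Ptcd2, a protein known in mice to act in the processing of cytochrome b transcripts, stood at 10.2 and 17.7 CPM in KO 1 and KO 2, against 31.4 and 33.2 CPM in WT 1 and WT 2 (-1.26 ± 0.28 SE, edgeR adjusted p = 0.00764). It passed in every alternative run. Of 21 aminoacyl-tRNA synthetases and related enzymes, which load amino acids onto tRNAs, 1 rose and 2 fell, or 14.3%. For the RNA processing list the share called was 13.3%, and both stand beside 42.2% of all genes tested. Gars, which also serves the cytosol, stood at 182 and 207 CPM in KO 1 and KO 2, against 90.6 and 84.3 CPM in WT 1 and WT 2 (1.11 ± 0.16 SE, edgeR adjusted p = 0.00077). Without KO 1 0 synthetase genes fell, and without WT 1 or WT 2 1 did.

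Of 77 mitochondrial ribosomal proteins 3 rose and 2 fell, or 6.49%, beside 42.2% of all genes tested. The 3 that rose were lost without KO 1, KO 2 or WT 1 (0 left), and 1 was left without WT 2; DESeq2 called 0. Mrpl49, of the large subunit, stood at 6.30 and 7.26 CPM in KO 1 and KO 2, against 20.7 and 19.01 CPM in WT 1 and WT 2 (-1.59 ± 0.29 SE, edgeR adjusted p = 0.00267), and was lower under every alternative; without KO 1, KO 2 or WT 2 the list had 1 gene lower. Among 13 genes of mitochondrial DNA replication and upkeep, 3 fell and 0 rose, or 23.1%, near the 20.2% of all genes called lower, and 0 fell without WT 2.

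The nuclear partners of the mitochondrial subunits mostly did not pass either. Of 74 nuclear subunits of complexes I, III, IV and V, 3 rose and 4 fell, or 9.46%, beside 42.2% of all genes tested. Their median log2 fold change was -0.07. Complex IV had 0 of 14 called, with 0 at an unadjusted p under 0.05 and 0 by DESeq2, though 1 fell without WT 1. Complex III, the partner complex of mt-Cytb, had 1 of 9 lower and 0 higher, and 0 lower without KO 2. Complex I had 2 of 36 higher and 0 lower, with 1 higher without KO 1 or WT 2, 0 higher without WT 1, and 1 lower without KO 1 or WT 2. Complex V had 1 of 16 higher and 3 lower, with 0 lower without KO 2, WT 1 or WT 2. Atpif1, the inhibitor of the ATP synthase, stood at 62.4 and 64.5 CPM in KO 1 and KO 2, against 31.4 and 31.9 CPM in WT 1 and WT 2 (0.96 ± 0.19 SE, edgeR adjusted p = 0.00407).

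In the lists for mitochondrial membranes, matrix and turnover the called genes were higher, at shares to be read beside the 42.2% of all genes called and the 22.0% called higher. Of 12 membrane and matrix genes 5 rose and 0 fell, or 41.7%, and 3 rose without WT 2. Vdac2, an outer membrane channel, stood at 296 and 309.5 CPM in KO 1 and KO 2, against 139 and 159 CPM in WT 1 and WT 2 (0.97 ± 0.17 SE, edgeR adjusted p = 0.00229). Timm23, a channel of the inner membrane import machinery, stood at 47.6 and 54.5 CPM in KO 1 and KO 2, against 24.4 and 26.0 CPM in WT 1 and WT 2 (0.97 ± 0.21 SE, edgeR adjusted p = 0.00591). Of 10 mitophagy genes 3 rose and 0 fell, or 30% called, and 1 rose without WT 2. Sqstm1, a receptor of selective autophagy, stood at 928 and 908 CPM in KO 1 and KO 2, against 340 and 322 CPM in WT 1 and WT 2 (1.43 ± 0.17 SE, edgeR adjusted p = 0.000306). Where a direction above counts 0 genes, DESeq2 also called 0, and at an unadjusted p under 0.05 the count was 0 except for 2 complex I genes that were lower.

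**Figure D5:**
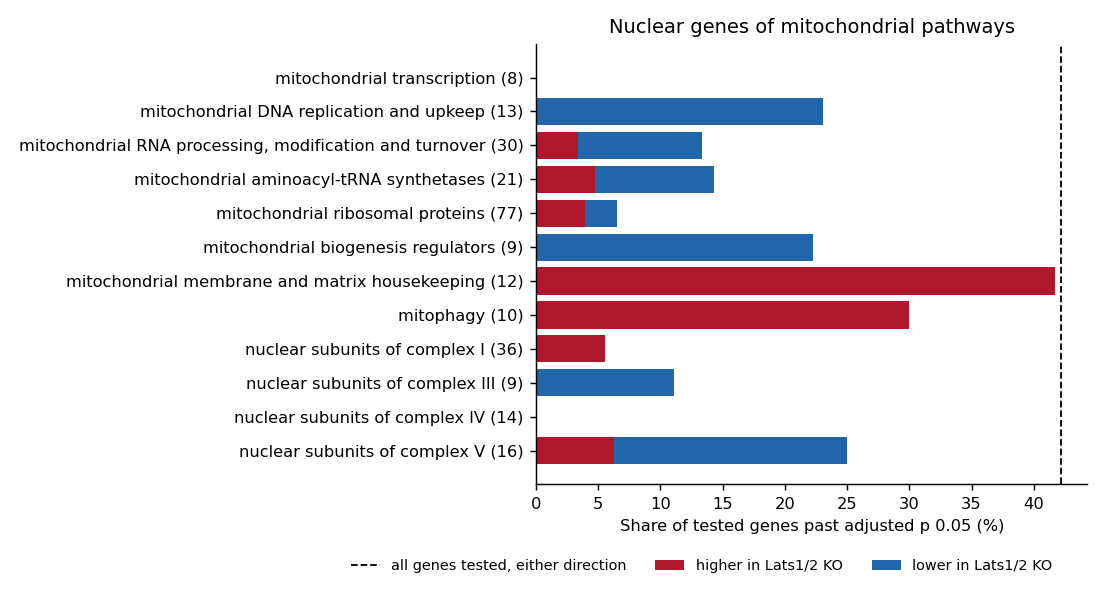
Share (%) of the tested genes of 12 nuclear lists past an adjusted p of 0.05, higher (red) or lower (blue) in the knockout-labelled libraries, with the number tested in brackets; the dashed line is the 42.2% of all genes. The longest bar is that of the membrane and matrix genes (41.7%), and the transcription and complex IV lists have none.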

How the data were processed

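Raw counts per gene model, deposited by the authors as 1 file per library, were used as given. Per the submitters' processing notes the build was mm10 and the tools TopHat and edgeR, without versions. All 37 mitochondrial models had the position and strand of GENCODE M21. CPM are counts over library totals. The SE of a log2 fold change is its absolute value over the square root of the quasi-likelihood F statistic. Counts were filtered (filterByExpr), TMM scaled (factors 0.945 to 1.05) and fitted with edgeR 4.0.16 (glmQLFit, robust, glmQLFTest; R 4.3.3), genotype as the only term, 2 residual degrees of freedom, after a test on simulated data. DESeq2 1.42.0, other scalings and filters, and fits without each library were alternatives; there, a lone library is assumed to vary like the other group. Sequences were compared with blastn 2.17.0 (identity of at least 90%) and by exact 50-base windows, both strands, against 141730 nuclear GENCODE transcripts; unannotated copies are missed. Members and lists were chosen with earlier results of these data known. Named genes are all mitochondrial genes, the targeted genes, nuclear copies and, per list, the 2 largest rises and falls among called genes. This gave 24 nuclear genes, of which the 8 called in every alternative, and Ppargc1a, are described. Counts differed within groups beyond sampling noise (chi-square per degree of freedom 20.0 and 20.1). Intervals and floors cover counting error, since no molecular identifiers are described.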

Additional observations from a re-analysis of the deposited data

How the results depend on the processing

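Of the 14 mitochondrial genes, none was called in the opposite direction to its value with all libraries, except mt-Rnr2 without KO 1 (-0.89), and the scaling alternatives moved the median log2 fold change of all genes by at most 0.20 (upper quartile, -0.20, with 39.4% of calls higher, against 52.1% with TMM). The number of mRNA genes called higher was 0, and it was 2 without the filter on low counts. The number called lower was 1, and it was 2 with upper quartile scaling, 4 without the filter on low counts and 0 without robust estimation. Of all genes tested, 25.7%, 12.2% and 20.4% were called lower in the same order, and 14.3% higher without the filter. Leaving out 1 library gave 0 to 2 mRNA genes higher and 0 to 3 lower, 0 to 2 rRNA genes higher and 0 to 1 lower. Over all genes tested, the differences between replicates 1 and 2 were hardly correlated between the groups (correlation 0.0355, with 2 pairs). Summed mitochondrial mRNA was higher in KO 1 than in KO 2 (2.42% and 1.84%) and in WT 1 than in WT 2 (3.14% and 2.02%). Whether the replicate numbers mark pairs is not given. With the replicate block, 1 mRNA gene was higher (mt-Nd6, edgeR adjusted p = 0.0243) and 4 were lower (mt-Cytb, mt-Nd2, mt-Nd4 and mt-Atp6). Of the listed nuclear genes, 18 were higher and 26 lower in that fit. It called 47.6% of all genes tested (24.8% higher and 22.8% lower).

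Leaving out 1 library moved the log2 ratio of summed rRNA between -0.66 and 0.88, that of tRNA to mRNA counts between -0.0182 and 1.19, that of mt-Rnr2 to mt-Rnr1 between -0.30 and -0.0142, and that of mt-Nd6 to heavy-strand mRNA between 0.83 and 0.90. For all genes tested it left 1867 to 2276 lower. Of the listed nuclear genes, 9 were higher and 32 lower with upper quartile scaling, and 10 were lower by DESeq2; leaving out 1 library gave 8 to 13 higher and 7 to 11 lower. Adding the counts of nuclear copies, chosen after seeing the data, changed no count of calls among mitochondrial genes, but it moved single values. The log2 fold change of mt-Co2 went from -0.65 to -0.82 (edgeR adjusted p = 0.345 and 0.0603). That of mt-Co3 went from -0.67 to -0.81 (edgeR adjusted p = 0.232 and 0.0509). mt-Atp6 moved the other way, from -0.56 to -0.35 (edgeR adjusted p = 0.0925 and 0.245). The causes of these shifts were not tested. mt-Nd3, mt-Nd4l and the 21 tRNA genes without counts were too low for a test at these depths.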

Other observations

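Nuclear copies of mitochondrial genes outside chromosome 1 held 0 to 97 counts over the 4 libraries, some of them more than Gm28438 (38) on chromosome 1. On chromosome 2, Gm13341, Gm13340 and Gm13339 match mt-Co2, mt-Co1 and the end of mt-Nd2 at 95.9%, 97.6% and 96.7% identity and keep a common spacing. Gm13340 had 11 and 7 counts in KO 1 and KO 2, against 15 and 7 in WT 1 and WT 2. Gm13341 had 11 and 11 counts in KO 1 and KO 2, against 11 and 21 in WT 1 and WT 2. Gm13339 had 28 and 14 counts in KO 1 and KO 2, against 29 and 26 in WT 1 and WT 2. On chromosome 4, Gm11407, Gm11408 and Gm11410 match mt-Nd5, mt-Nd6 and mt-Cytb at 92.3% to 93.6% identity, and each had 0 counts in all 4 libraries. These copies were found after the values were seen, and their counts stand here as values alone.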
